A study of Mus musculus with 2 samples.

Results

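Genes that bring iron into cells, oxidise it, carry it in the cytosol and sense it were examined in mouse splenic red pulp macrophages, which engulf old red blood cells and return their iron to the blood. The set holds 10 genes: the uptake genes Tfrc, Steap3, Slc11a2 and Slc11a1, the ferroxidases Heph and Cp, the iron-regulatory proteins Aco1 and Ireb2, and the iron chaperones Pcbp1 and Pcbp2. They were chosen by name and function, with earlier results of these data known, so the counts below are not those of a blind choice. Every probe whose RefSeq accession belongs to such a gene was taken. This gave 17 probes of 27206 probes with a named gene and 10 genes of 20642. Macrophages came from SIRPα-KO mice, which lack an inhibitory receptor of myeloid cells, and from wild-type (WT) mice. The labels describe a sort for F4/80 with low CD11b, a pool of 5 mice per genotype, and depletion of globin transcripts, after which cRNA labelled with Cy3 was hybridised to 1 array per genotype. The sources used here do not give age, sex, strain or how Sirpa was disrupted.

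In outline, transferrin-bound iron enters a cell through the transferrin receptor, is reduced in the endosome by a STEAP reductase, and leaves the endosome through a divalent metal transporter. Chaperones pass the ferrous iron to ferritin and to enzymes, and iron that leaves through ferroportin is oxidised by a multicopper ferroxidase so that transferrin can bind it. The iron-regulatory proteins bind iron-responsive elements in transcripts such as those of the transferrin receptor and ferritin when iron is scarce. Red pulp macrophages are known for taking most of their iron from the heme of engulfed red blood cells.

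Each genotype had 1 array, so no difference has a replicate check and no test across samples could be made. Precision is limited throughout by the number of arrays. Values are the scanner's processed signal (intensity after background subtraction), and differences are log2 of that signal scaled to the 75th percentile of each array, taken as SIRPα-KO minus WT by label. The error after ± is the software's spot error, or that error carried from both arrays to the log2 difference. It covers the reading of spots, not mice or pools. The brightest probes of Steap3, Aco1 and Pcbp2 all had a log2 error of 0.20, each from 1 spot per array. The error there is thus no spread observed between spots. A probe or gene counts as apart when the arrays differ at least 2-fold (1 on the log2 scale). The software called 65.4% of 39386 probes well above background for the array labelled SIRPα-KO and 71.5% for the WT array, and a probe was measured when it was so called on at least 1 of them. In bulk samples such as these pools, fewer cells of a type and less RNA per cell cannot be told apart.

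The targeted gene was read at 1 probe. Sirpa had a signal of 1006 ± 101 on the array labelled SIRPα-KO and 795 ± 79.5 on the WT array, a log2 difference of 0.51 ± 0.20. The Sirpa signal went against the label of the first array. The place of the probe relative to the disrupted part of Sirpa is unknown here, and outside that part it would be no check of the label. All directions given here therefore rest on the labels alone.

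Of the 10 genes, 8 were measured, at 13 of 17 probes, and all 13 were well above background on both arrays. Heph and Aco1 were lower by 2-fold or more on the array labelled SIRPα-KO, and 0 of the 8 were higher by that much. By probe, 3 of 13 were 2-fold or more lower and 0 of 13 were 2-fold or more higher, against 5.00% and 3.09% of 19593 measured probes of named genes. By gene, read at the brightest probe, 2 of 8 were 2-fold or more lower, against 5.50% of 15836 measured genes. Of the 3 probes counted, 2 belong to Heph. Signal bins below are 10 groups of near-equal gene number ordered by mean signal. The median over the 8 genes was -0.34, beside -0.09 over all measured genes. Of the 13 probes, 5 differed by more than 2 times their error and 4 by less than their error. The like share over all measured probes was not computed, so these counts have no background. The errors, 0.20 to 0.34, were below the general spread of differences. Over genes well above background on both arrays, the standard deviation of the difference was 0.62.

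**Figure D1:**
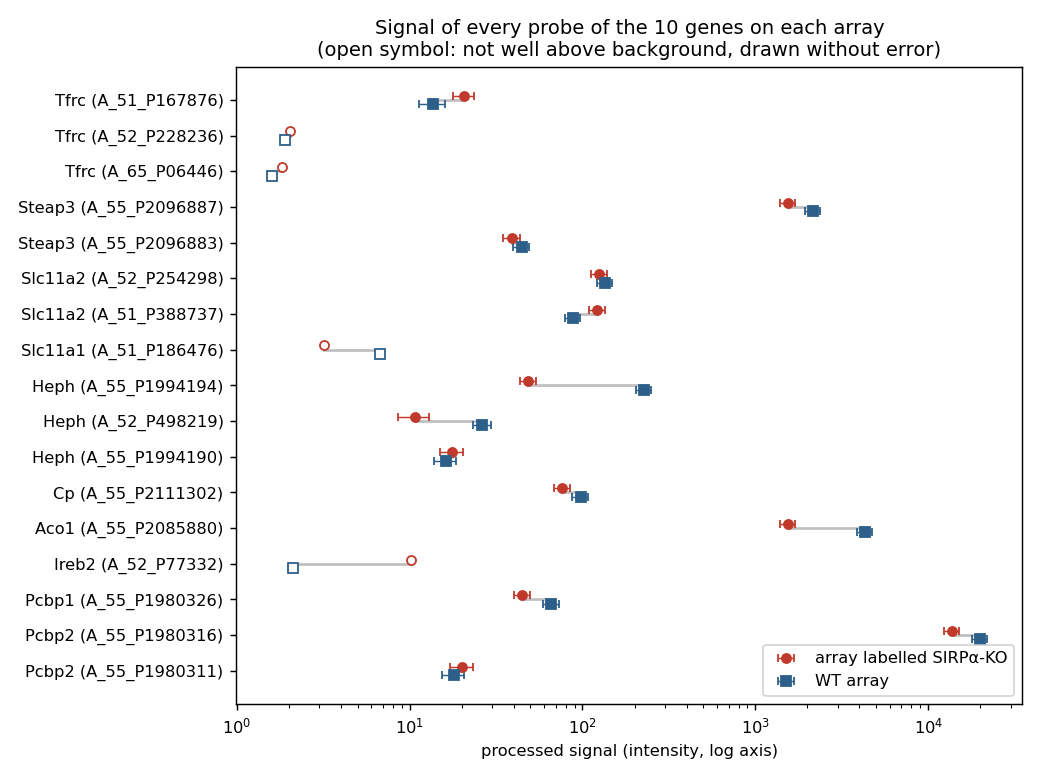
Processed signal (intensity, log axis) of each of the 17 probes on the array labelled SIRPα-KO (red circles) and on the WT array (blue squares). Bars are the software's spot error, and open symbols are probes not well above background, drawn without error. The widest gaps among filled symbols are at Heph A_55_P1994194 (48.6 against 227) and Aco1 (1535 against 4307).

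Transferrin uptake is read through Tfrc, the transferrin receptor, which lies on chromosome 16 from 32608896 to 32632794 in GRCm38.p6. Tfrc had 3 probes, all designed to the transcript NM_011638, and they did not give like signals. Probe A_51_P167876 had 20.7 ± 2.86 on the array labelled SIRPα-KO and 13.7 ± 2.36 on the WT array. Both signals are low, the higher one being on the array labelled SIRPα-KO. The log2 difference was 0.76 ± 0.32, or 1.70-fold higher, short of 2-fold. Among genes in the same signal bin, 92.5% had a difference at or below that of Tfrc. Probe A_52_P228236 was not well above background on either array over 8 spots each. Those spots ranged from 1.90 to 2.36 with a median of 2.02 on the array labelled SIRPα-KO, and from 1.67 to 2.47 with a median of 1.85 on the WT array. Probe A_65_P06446 had 1.84 ± 1.83 on the array labelled SIRPα-KO and 1.60 ± 1.59 on the WT array, also not well above background. The Tfrc difference therefore rests on 1 spot per array, with 2 further probes that carried no measurable signal. After normexp background correction it was 0.28.

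Erythroid precursors are known for very high transferrin receptor levels, so markers of red cell precursors were read beside Tfrc. Of 10 erythroid markers 8 were measured, with a median difference of -0.27, and 6 lay below 0. Among the 8, Alas2 was measured on the WT array alone and its difference was set to 0. The summed signal of the 8 markers was 13950 on the array labelled SIRPα-KO and 20737 on the WT array, without scaling between arrays. Ermap alone gave 12763 of that sum on the array labelled SIRPα-KO and 19111 on the WT array, so the sums follow mainly 1 gene. Kel and Rhag were not well above background on either array. Markers of proliferating cells, which also take up much transferrin, had a median of 0.01 with 0 of 6 at least 2-fold apart, and summed to 28816 on the array labelled SIRPα-KO and 36361 on the WT array. Tyms alone gave 28575 of the sum on the array labelled SIRPα-KO and 36098 on the WT array. The part of these cells in the Tfrc values was not tested.

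Steap3, the ferrireductase of the endosome (chromosome 1 from 120226414 to 120271081), was read at 2 probes of the transcript NM_001085409. Probe A_55_P2096887 had 1539 ± 154 on the array labelled SIRPα-KO and 2143 ± 214 on the WT array. The difference was -0.31 ± 0.20, and the median of genes in its signal bin, the brightest, was -0.32. Probe A_55_P2096883 had 39.2 ± 4.36 on the array labelled SIRPα-KO and 44.5 ± 4.76 on the WT array. Its difference was -0.02 ± 0.22. Steap3 thus lay at the middle of genes of like brightness, and the brighter probe's difference was 0.01 in the authors' processed values.

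Slc11a2, the transporter DMT1 that moves ferrous iron out of the endosome (chromosome 15 from 100387898 to 100424209), was read at 2 probes of the transcript NM_008732. Probe A_52_P254298 had 125 ± 12.7 on the array labelled SIRPα-KO and 134 ± 13.6 on the WT array. Probe A_51_P388737 had 122 ± 12.4 on the array labelled SIRPα-KO and 87.9 ± 9.0 on the WT array. The first probe differed by 0.07 ± 0.21 and the second by 0.64 ± 0.21, or 1.56-fold. Their errors do not overlap, although both were designed to 1 transcript. The local background of the second probe's spot was flagged as an outlier on the array labelled SIRPα-KO. Without scaling between arrays, the first probe's difference was -0.10, and after normexp the second was 0.37.

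Slc11a1, the phagosomal metal transporter NRAMP1 of macrophages (chromosome 1 from 74375014 to 74386057), was not measured. Its probe A_51_P186476 had 3.20 ± 1.94 on the array labelled SIRPα-KO and 6.72 ± 1.82 on the WT array. Neither signal was well above background, so no fold is given. The lowest probe signals well above background were 8.37 on the array labelled SIRPα-KO and 7.92 on the WT array. At this signal a difference in Slc11a1 was not detectable.

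Heph, the membrane-bound ferroxidase hephaestin known best for iron export from the gut epithelium, lies on chromosome X from 96455436 to 96574485 and had 3 measured probes. Probe A_55_P1994194, of the transcript NM_001159628, had 48.6 ± 5.20 on the array labelled SIRPα-KO and 227 ± 22.8 on the WT array. Its difference was -2.06 ± 0.21, or 4.16-fold lower. Among the genes in its signal bin, 1.14% had a difference at or below it and 4.23% were at least 2-fold lower. Across 9 other processing settings it ranged from -2.22 to -1.36.

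The other Heph probes carry the transcript NM_181273, and they differ from each other in direction. Probe A_52_P498219 had 10.8 ± 2.21 on the array labelled SIRPα-KO and 26.3 ± 3.15 on the WT array. Its difference of -1.12 ± 0.34 is lower on the array labelled SIRPα-KO, like that of the bright probe, and was -0.14 after normexp. Probe A_55_P1994190 had 17.7 ± 2.70 on the array labelled SIRPα-KO and 16.2 ± 2.43 on the WT array. Its difference of 0.29 ± 0.31 is smaller than its error. The mean over the 3 probes was -0.96, short of 2-fold. The range between them was 2.35 on the log2 scale, beside a median range of 0.68 over 297 genes with 3 probes well above background on both arrays, of which 2.69% had a range at least that wide. Whether the probes read different Heph transcripts was not tested.

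Cp, the ferroxidase ceruloplasmin of plasma and of cell membranes, lies on chromosome 3 from 19956933 to 20009750. Its probe A_55_P2111302, of the transcript NM_007752, had 76.6 ± 8.0 on the array labelled SIRPα-KO and 97.5 ± 9.96 on the WT array. The difference of -0.18 ± 0.21 is smaller than its error. Among genes of like signal, 35.4% had a difference at or below that of Cp. The ferroxidases thus gave unequal values, with Heph apart at its brightest probe and Cp not apart. The difference between the genes was not tested.

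**Figure D2:**
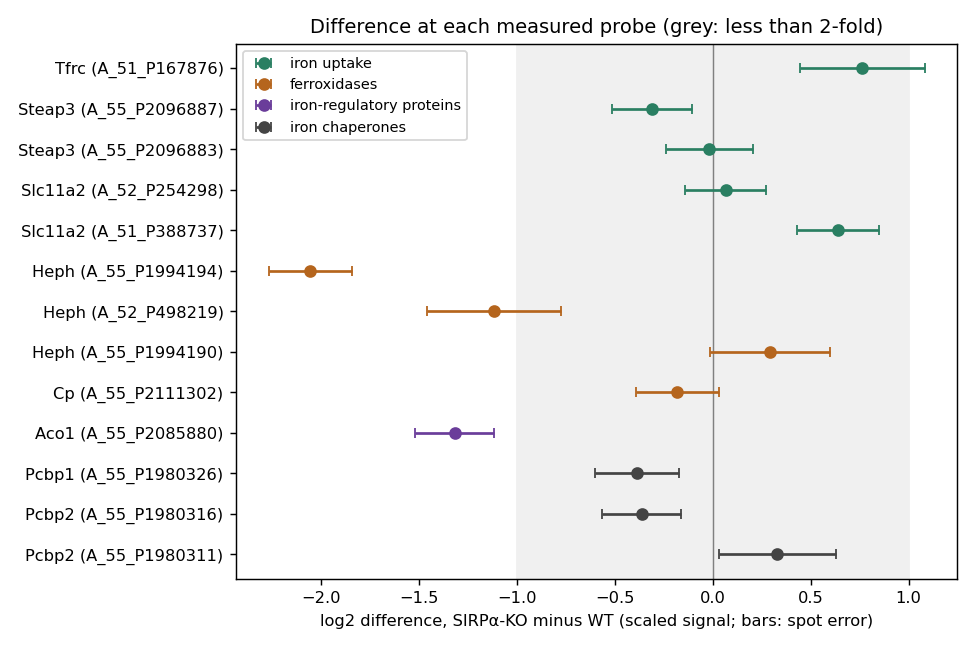
Log2 difference (SIRPα-KO minus WT by label) at each of the 13 measured probes, coloured by role, with the spot error of both arrays as bars and the range of less than 2-fold in grey. The probes of Heph at -2.06 and -1.12 and that of Aco1 at -1.32 lie outside the grey range, and the third Heph probe lies at 0.29.

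Aco1 encodes IRP1, which is a cytosolic aconitase while it holds an iron-sulphur cluster and an iron-regulatory protein when it does not. It lies on chromosome 4 from 40143265 to 40199009 and had 1 probe, A_55_P2085880, of the transcript NM_007386. The signal was 1535 ± 154 on the array labelled SIRPα-KO and 4307 ± 431 on the WT array. The difference was -1.32 ± 0.20, or 2.50-fold lower. It ranged from -1.49 to -1.02 across 9 other settings, at least 2-fold lower in all 9. Settings that change only filters or flags could hardly move it. Bright genes as a whole had lower values on that array than on the WT array. In the brightest bin, which holds Aco1, the median difference was -0.32 and 17.6% of 1584 genes were at least 2-fold lower. That share was 2.78% to 3.91% in bins 2 to 6, counted from the dimmest, and 1.07% in the dimmest bin. In the dimmest bin the rule for probes measured on 1 array limits the size of differences. Of the genes in the brightest bin, 11.8% had a difference at or below that of Aco1. Relative to the median of its bin, Aco1 differed by -0.997, just short of 2-fold. The value of -1.02 came from centring within 10 bins of probes rather than of genes. No second Aco1 probe was read.

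Ireb2 encodes IRP2, the iron-regulatory protein that is degraded when iron is plentiful, and lies on chromosome 9 from 54862658 to 54912534. Its probe A_52_P77332 had 10.2 ± 2.59 on the array labelled SIRPα-KO and 2.12 ± 2.11 on the WT array. The scanner software called neither signal well above background, so Ireb2 was not measured and no fold is given. The local background of the spot was also flagged as an outlier on the array labelled SIRPα-KO. Of the regulatory pair, only Aco1 could therefore be compared.

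**Figure D3:**
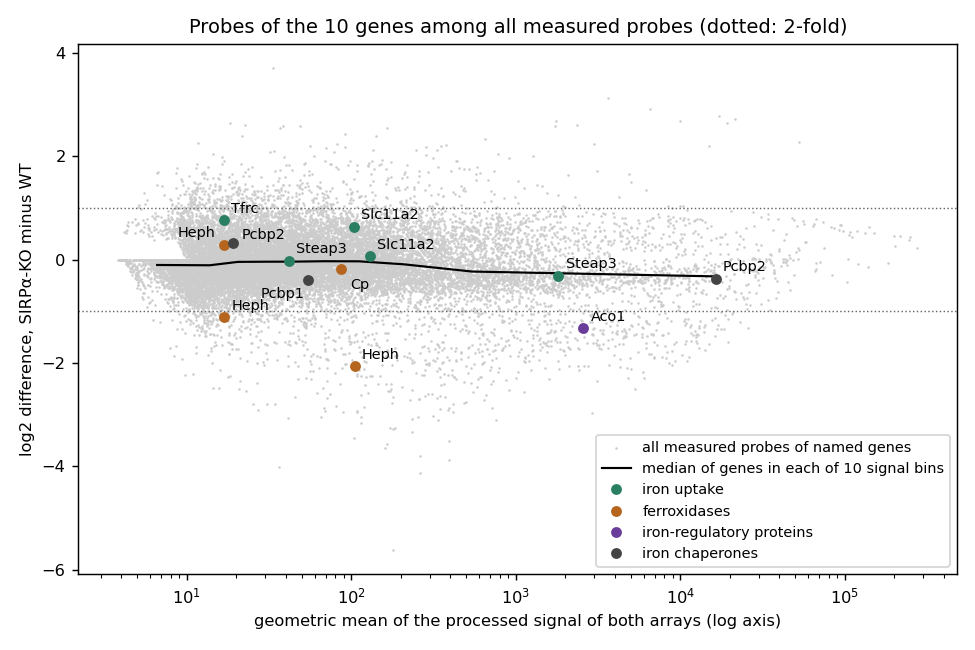
Log2 difference (SIRPα-KO minus WT by label) against the geometric mean of the processed signal of both arrays (log axis). Grey points are all 19593 measured probes of named genes, coloured points are the 13 probes of the set, and the line joins the medians of genes in each of 10 signal bins, which end at -0.32. Points on the zero line at low signal are probes not well above background on 1 array whose difference was set to 0.

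The promoter windows of Aco1 and Tfrc are shown because Aco1 is the bright gene of the set past 2-fold and Tfrc is the classic transcript under control of the iron-regulatory proteins. Sequences are from RefSeq (GRCm38.p6) and run 5′ to 3′ on the gene's strand from 250 bases before to 50 bases after a start site. Capitals mark the letters ACGTG or their reverse complement, a form of the core of the hypoxia response element. Other forms of that core were not searched. Hypoxia-inducible factors are marked for degradation by enzymes that need iron, and the transferrin receptor gene is a known target of these factors. The Aco1 window is chr4:40143015-40143314 (plus strand) and the Tfrc window is chr16:32608646-32608945 (plus strand).
Aco1: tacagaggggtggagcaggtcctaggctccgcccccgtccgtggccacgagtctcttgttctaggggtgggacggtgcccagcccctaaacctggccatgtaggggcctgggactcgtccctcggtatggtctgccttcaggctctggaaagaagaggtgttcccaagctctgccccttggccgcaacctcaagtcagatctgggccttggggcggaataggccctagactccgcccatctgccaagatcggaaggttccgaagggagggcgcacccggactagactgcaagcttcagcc
Tfrc: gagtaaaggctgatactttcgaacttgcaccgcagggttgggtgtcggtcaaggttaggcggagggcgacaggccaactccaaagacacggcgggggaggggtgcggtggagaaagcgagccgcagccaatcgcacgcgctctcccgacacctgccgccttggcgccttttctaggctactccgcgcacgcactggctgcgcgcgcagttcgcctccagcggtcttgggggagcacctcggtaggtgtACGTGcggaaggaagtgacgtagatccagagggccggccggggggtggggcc
The Tfrc window held 1 match, which starts at base 249, and the Aco1 window held 0. Over both strands, counting overlapping matches, 19.6% of 32851 promoter windows of this length held ACGTG. Of the 10 genes 8 had a promoter entry, with 14 windows in all, and those of Tfrc and Pcbp1 held it. The antioxidant response element core (TGACNNNGC, in 12.4% of all windows) was in 0 of the 14 windows. The interferon-stimulated response element core, in 3.44% of all windows, was in 0 of the 14 as well. The NF-κB site core, in 20.7% of all windows, was in 5 windows of 3 genes, Steap3, Cp and Ireb2. A match describes letters only, and no binding was measured here.

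Pcbp1 and Pcbp2 encode poly(rC)-binding proteins, RNA-binding proteins that also act as iron chaperones and load ferritin. Pcbp1 (chromosome 6 from 86524480 to 86526189) was read at probe A_55_P1980326 of the transcript NM_011865. It had 45.0 ± 4.90 on the array labelled SIRPα-KO and 66.1 ± 6.82 on the WT array. The difference was -0.39 ± 0.22, or 1.31-fold lower. Pcbp1 and Pcbp2 are close relatives, and whether a probe also binds transcripts of the other gene was not tested.

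Pcbp2 (chromosome 15 from 102470450 to 102500068) was read at 2 probes of the transcript NM_001103165, which gave opposite signs. Probe A_55_P1980316 had 13690 ± 1369 on the array labelled SIRPα-KO and 19805 ± 1980 on the WT array. Its difference was -0.36 ± 0.20, close to the median of -0.32 of the brightest bin, and -0.13 after quantile normalization. Probe A_55_P1980311 had 20.2 ± 3.0 on the array labelled SIRPα-KO and 18.1 ± 2.57 on the WT array. Its difference was 0.33 ± 0.30, and 0.01 after normexp. The spot of the brighter probe had an outlier flag on its local background on the array labelled SIRPα-KO. Among the 4 genes of the set with more than 1 measured probe, the range between probes was 2.35 for Heph, 0.69 for Pcbp2, 0.57 for Slc11a2 and 0.29 for Steap3. Over 2276 genes with 2 probes well above background on both arrays the median range was 0.42.

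**Figure D4:**
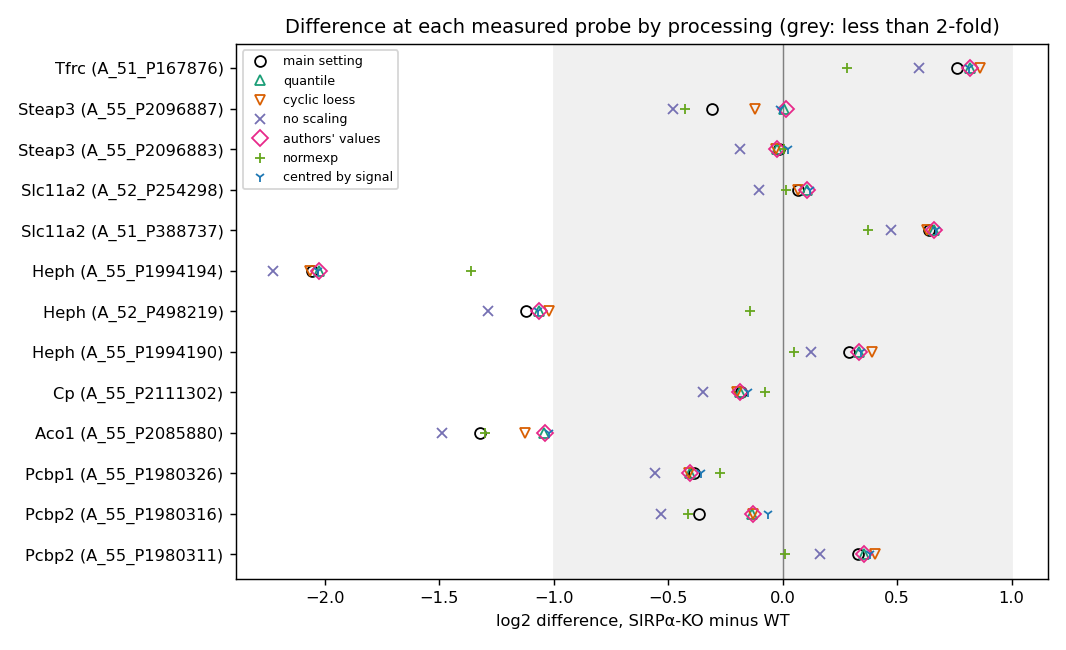
Log2 difference (SIRPα-KO minus WT by label) at each of the 13 measured probes under 7 ways of processing, with the range of less than 2-fold in grey. Aco1 (-1.49 to -1.02) and Heph A_55_P1994194 (-2.22 to -1.36) stay outside the grey range, and Heph A_52_P498219 enters it after normexp at -0.14.

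Other genes of iron handling were read at their brightest measured probe from a list of 38, of which 33 were measured, 1 was higher and 1 lower by 2-fold or more. The background for genes was 3.09% higher and 5.50% lower. The median of the 33 was -0.13, beside -0.09 over all genes. Herc2 and Ciao1, the genes past 2-fold, both belong to the list of 9 genes for iron sensing and control of the iron-regulatory proteins. Herc2, a ubiquitin ligase that acts on the IRP2 regulator FBXL5, had 1255 on the array labelled SIRPα-KO and 430 on the WT array, a difference of 1.71 ± 0.20. Ciao1, part of the cytosolic machinery that inserts iron-sulphur clusters, had 1579 on the array labelled SIRPα-KO and 3982 on the WT array, a difference of -1.17 ± 0.20. Ciao1 lies in the brightest bin, as Aco1 does, and was short of 2-fold in 4 of 9 other settings, reaching -0.87. Mms19, of the same machinery, differed by 1.00 ± 0.23, just short of 2-fold. Fbxl5, the adaptor that marks IRP2 for degradation, differed by -0.27 ± 0.26.

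Ferritin is translated under control of the iron-regulatory proteins and stores the iron that the chaperones deliver. Ftl1, the ferritin light chain, had 89145 on the array labelled SIRPα-KO and 60587 on the WT array, a difference of 0.73 ± 0.20 with a further probe at -0.24. Fth1, the ferritin heavy chain, had 19196 on the array labelled SIRPα-KO and 15898 on the WT array, a difference of 0.44 ± 0.20. Neither was 2-fold or more apart, but Ftl1 was at 1.02 when differences were centred within signal bins of probes. The iron exporter Slc40a1 differed by -0.15 ± 0.21 and the heme oxygenase Hmox1 by -0.32 ± 0.20. None of the 6 measured genes of transferrin and endosomal handling, the 7 of other metal transport and reduction, the 3 relatives of the ferroxidases and chaperones, or the 4 further transcripts with an iron-responsive element was at least 2-fold apart. The medians of these lists were -0.23, -0.19, -0.25 and -0.03. The last list includes Alas2, measured on the WT array alone and set to 0. The median was 0.35 for the 9 genes of iron sensing, of which 7 lay above 0, and 0.15 for the 4 measured genes of storage and export, of which 2 lay above 0. The transferrin gene Trf, at 0.43 ± 0.20, and the second transferrin receptor Tfr2, at -0.76 ± 0.33, were the highest and lowest of the first list.

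**Figure D5:**
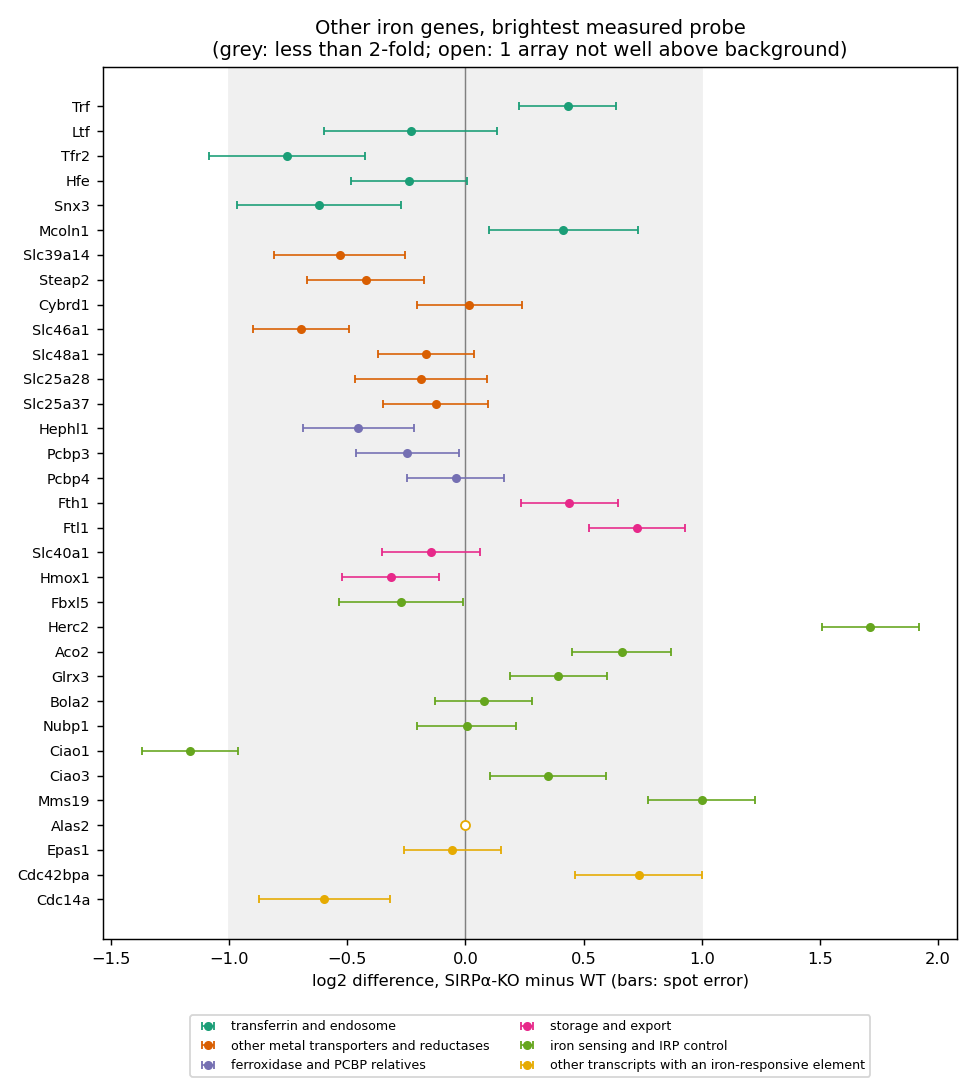
Log2 difference (SIRPα-KO minus WT by label) at the brightest measured probe of 33 other iron genes, coloured by list, with spot error bars and the range of less than 2-fold in grey. Herc2 at 1.71 and Ciao1 at -1.17 lie outside the grey range, and the open symbol is Alas2, measured on the WT array alone and set to 0.

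Marker genes were read to check the labelled cell type and other cells a sort can carry. Of 12 red pulp macrophage markers 10 were measured, and 6 of them lay below 0. Mertk was not well above background on either array, and no probe was matched to Cd68. Summed signals, without scaling between arrays, were 17782 on the array labelled SIRPα-KO and 14075 on the WT array. Adgre1 gave 10406 of the sum on the array labelled SIRPα-KO and 6830 on the WT array. Csf1r gave 6697 on the array labelled SIRPα-KO and 6601 on the WT array, so the sums follow mainly these genes. Adgre1, which encodes F4/80 and was used for the sort, had 2 probes of opposite sign. Its brighter probe differed by 0.78 ± 0.20 and the other by -0.47, and over 9 other settings the gene ranged from -0.47 to 1.07, past 2-fold in 3. Spic, a transcription factor needed for the development of these macrophages, differed by 0.17 and Vcam1 by -0.21. By level, Spic (53.6 on both arrays) and Vcam1 (63.2 on the array labelled SIRPα-KO, 82.1 on the WT array) were below the 75th percentile of either array. Among markers of other cells, Elane was far brighter, at 39299 on the array labelled SIRPα-KO and 45722 on the WT array. Mzb1 was dimmer, at 16.2 on the array labelled SIRPα-KO and 16.8 on the WT array. The macrophage median was -0.16, with C1qc 2-fold or more higher (1.11 ± 0.20), short of it without scaling and after normexp, with a lowest value of 0.84. The related complement genes C1qb, at -0.34 ± 0.21, and C1qa, at -0.76 with its dim side at a bound, had the opposite sign, as did the scavenger receptor Cd163 at -0.57 ± 0.24. Over the lists of other cells, the markers past 2-fold described here were lower in 4 lists and higher in 1. They were 2 of 5 measured markers for plasma cells and 1 of 4 for neutrophils. For dendritic cells, endothelial and stromal cells, and platelets they were 1 of 5 each. Over all measured genes 5.50% were 2-fold or more lower and 3.09% higher. Plasma cell markers had a median of -0.85, with Jchain at -2.78 and Derl3 at -1.06, and summed to 221 on the array labelled SIRPα-KO and 1440 on the WT array. Jchain alone gave 174 on the array labelled SIRPα-KO and 1343 on the WT array. The median is the value of Sdc1, a bound, and was -0.11 after normexp, and Mzb1 was at 0.11 ± 0.32. S100a8 of neutrophils was at -1.23, Flt3 of dendritic cells at -1.07, Emcn of endothelial cells at -1.07 and Gp1ba of platelets at 1.44. Other markers of these lists were unlike them, with Elane at -0.05, Itgax at 0.85, Col1a1 at 0.61 and Gp9 at -0.52. Markers below 0 were 4 of 4 for neutrophils and 3 of 5 for dendritic cells. They were 4 of 5 for endothelial and stromal cells and 2 of 5 for platelets. After normexp C1qc, Derl3, S100a8, Emcn and Gp1ba were short of 2-fold. Flt3 was short of it after quantile normalization and cyclic loess, in the authors' values and when centred within signal bins. A further Flt3 probe was at -2.25. List medians were 0.20 for B cells, -0.12 for T and NK cells, -0.12 for neutrophils, -0.17 for dendritic cells, 0.19 for platelets, -0.10 for endothelial and stromal cells and -0.27 for erythroid cells. The part of these cells in the differences of the iron genes was not tested.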

How the data were processed

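Gene expression was measured on 1-colour arrays, 1 for SIRPα-KO and 1 for WT, each from cells of 5 mice. The scanner tables deposited by the authors hold intensity, made with Agilent Feature Extraction 11.0.1.1 on array design 26655 (build mm9), per the file headers. The deposited table of the authors' processed values is on a log2 scale that rises with the scanner signal; both columns have a median of 4.56, no source used here gives the method, and it served as an alternative.

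The main value was log2 of the processed signal minus its 75th percentile on the array (89.2 for SIRPα-KO, 100.2 for WT). Control spots and 321 of 43020 other spots flagged as outliers on either array were left out, and spots of 1 probe were averaged. Accessions were matched without version to RefSeq transcripts (GRCm38.p6, which also gives the coordinates). A gene was read at its brightest measured probe in counts of genes, and at every probe otherwise. A probe measured on 1 array only got, on the other, the lowest measurable value there unless its own was higher. Signal bins are 10 groups of genes ordered by mean log2 signal. The setting that centres differences within signal bins used 10 groups of probes instead. With 1 array per group no test was made. The naming rule took all 10 genes, Sirpa, Fth1, Ftl1, Slc40a1, Hmox1 and any other iron gene or marker at least 2-fold apart; Mms19, Fbxl5, Trf, Tfr2, and the markers below 2-fold, were chosen with their values known. The result of 1 marker that the rule takes is not reported here. The set and lists were chosen with earlier results of these data known. Calculations used Python 3.11.15, pandas 2.3.3, R 4.3.3 and limma 3.58.1, and were tested on simulated data. Alternatives were quantile, cyclic loess and no scaling, the authors' values, no filter on dim probes, a filter on both arrays, other fold limits, and the mean or dimmest probe. Normexp on mean signals was not run, since median signals were used instead (offset 50).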

Additional observations from a re-analysis of the deposited data

How the results depend on the processing

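Normexp on median signals, centring within signal bins and leaving out spots with background outlier flags were added with the data already seen. The count of probes at least 2-fold lower, 3, was 2 after normexp and 1 at a 3-fold limit, and that of genes, 2, was 1 at 3-fold and 1 with the mean of all probes. With no filter on dim probes 1 probe and 1 gene were at least 2-fold higher, Ireb2 alone. In that setting 4.23% of all 20642 genes were 2-fold or more higher and 7.98% lower. At a 1.5-fold limit 2 probes and 1 gene were higher. Shares over all genes at the 1.5-fold and 3-fold limits were not computed, so counts at those limits have no background. The median over the genes, -0.34, was -0.11 when centred within bins and -0.10 at the dimmest probe. The count of other iron genes apart, 2, was 10 at 1.5-fold and 1 at 3-fold, in the authors' values, with quantile normalization and with cyclic loess, and 3 with no filter on dim probes and when centred within bins. Sirpa, 0.51, was 0.75 after quantile normalization, 0.75 in the authors' values and 0.81 when centred. Of 115 recomputed probe differences, 15 moved by more than their error and 0 of those at least 2-fold apart changed sign. Not all of the 115 could move. All 13 probes were well above background on both arrays, so either filter setting left their values as they were. Leaving out flagged background spots drops a probe or keeps its spot, and moved 0 of 11. Dropping the scaling shifts all probes alike, by less than the lowest error of 0.20. Leaving out the scaling moved the all-gene median to -0.26, beside -0.09, and the share of all genes 2-fold or more lower to 7.5% and higher to 1.91%. After quantile normalization those shares were 4.68% and 4.12%, with cyclic loess 4.81% and 3.95%, in the authors' values 4.61% and 4.10%, centred within bins 4.46% and 4.40%, and after normexp 3.65% and 0.644%. Fold limits change counts by construction, and so does the normexp offset for dim probes. For the other changes the cause was not tested. No array could be left out, and no paired analysis was possible because each group has 1 array. Dim signal limits Tfrc, Slc11a1, Ireb2 and the dimmer Heph and Pcbp2 probes.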
